A study of Mus musculus with 18 samples.

Results

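The genes of late red cell maturation studied here, 9 of the 55414 gene identifiers of the deposited count table, were followed across 18 mouse RNA-seq libraries: Bnip3l, Riok3, Xpo7, Trim58, Ube2o, Trim10, Kel, Ermap and Tmcc2. They were chosen by name, and each symbol matched 1 Ensembl identifier of GENCODE M21. The study exposed wild-type C57BL/6J mice to PM2.5, the fine fraction of airborne particles, or to filtered air. Its title is about the turnover of red blood cells. Whole spleens were taken after 30 days of PM2.5 (n = 4) or of filtered air (n = 4). In a second experiment macrophages were isolated from spleens of mice given PM2.5 (n = 5) or filtered air (n = 5), and the labels also mention a 30-day length and filtered air following the exposure. Sex, age and the way the macrophages were isolated were not given in the sources used here.

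A red cell precursor condenses and expels its nucleus at the end of its development. The young red cell that results, the reticulocyte, then removes its mitochondria by mitophagy and much of its protein and its ribosomes through ubiquitin. The mouse spleen is a site of red cell production under stress, and its red pulp macrophages take up aged red cells. Bnip3l, also called NIX, is the receptor that marks reticulocyte mitochondria for autophagy. Riok3 is an atypical protein kinase and Xpo7 a nuclear exporter, and both take part in nuclear condensation in mouse erythroblasts. Trim58 is a ubiquitin ligase that acts in enucleation, and Ube2o a ubiquitin-conjugating enzyme that remodels the proteome of reticulocytes. Trim10 is a RING finger protein of terminal erythroid differentiation. Kel and Ermap encode red cell surface proteins that carry the Kell and Scianna blood group antigens. Tmcc2 encodes a transmembrane protein with coiled-coil domains.

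Promoters of 5 members had an entry in the RefSeq table (GRCm38.p6), 7 entries in all, and each of the 5 genes had a GATA word in an entry. GATA1 is the master transcription factor of red cell development, and the words searched were AGATAA and AGATAG, and the same words with T as their first base, on both strands. The window ran over 250 bases before and 50 bases after the start. Of all 32851 promoter entries 29.8% held such a word, and of the 27025 genes with an entry 33.0% did. Kel held AGATAA beginning 56 bases before its start and TGATAA 19 bases before it. Tmcc2 held AGATAG and TTATCT, 52 and 33 bases before the start of 1 of its 3 entries. The word began 67 bases before the start in Ermap, 163 in Trim10 and 247 in Trim58. The spaced word CTGNNNNNNNNNGATA, searched on both strands and able to overlap the GATA words, was in an entry of 3 members, Kel, Ermap and Tmcc2, against 2.88% of all genes. A CACCC word (CCACACCC, CCACGCCC, CCCCACCC or CCCCGCCC, on either strand) was in entries of 1 member, Tmcc2, against 32.6% of all genes. The 250 bases before the start are shown for these 5 genes because only these members had an entry. Bnip3l, Xpo7, Ube2o and Riok3 had none and were not searched. The GATA words are in capitals, and the bases are read 5′ to 3′ on the gene's strand. These stretches lie at chr6:41704326-41704575 for Kel (minus strand), chr4:119189996-119190245 for Ermap (minus), chr1:132367949-132368198 for Tmcc2 (minus), chr17:36869324-36869573 for Trim10 (plus) and chr11:58640215-58640464 for Trim58 (plus).
Kel: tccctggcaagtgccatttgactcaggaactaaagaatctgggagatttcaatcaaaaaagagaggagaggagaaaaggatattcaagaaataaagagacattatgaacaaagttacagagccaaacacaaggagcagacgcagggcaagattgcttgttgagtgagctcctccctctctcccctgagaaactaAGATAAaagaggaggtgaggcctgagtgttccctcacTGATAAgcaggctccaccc
Ermap: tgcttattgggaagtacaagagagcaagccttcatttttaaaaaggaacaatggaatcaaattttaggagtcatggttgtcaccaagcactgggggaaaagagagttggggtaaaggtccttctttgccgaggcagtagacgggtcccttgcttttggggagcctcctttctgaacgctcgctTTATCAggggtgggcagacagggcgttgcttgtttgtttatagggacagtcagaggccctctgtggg
Tmcc2: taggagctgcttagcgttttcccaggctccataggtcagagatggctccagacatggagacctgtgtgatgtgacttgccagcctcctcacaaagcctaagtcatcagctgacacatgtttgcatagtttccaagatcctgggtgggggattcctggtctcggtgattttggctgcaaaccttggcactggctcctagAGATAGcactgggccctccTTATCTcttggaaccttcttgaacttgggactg
Trim10: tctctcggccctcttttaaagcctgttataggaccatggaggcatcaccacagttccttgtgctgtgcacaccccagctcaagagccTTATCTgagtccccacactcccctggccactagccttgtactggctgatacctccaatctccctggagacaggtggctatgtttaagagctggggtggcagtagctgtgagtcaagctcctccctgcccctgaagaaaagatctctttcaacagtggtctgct
Trim58: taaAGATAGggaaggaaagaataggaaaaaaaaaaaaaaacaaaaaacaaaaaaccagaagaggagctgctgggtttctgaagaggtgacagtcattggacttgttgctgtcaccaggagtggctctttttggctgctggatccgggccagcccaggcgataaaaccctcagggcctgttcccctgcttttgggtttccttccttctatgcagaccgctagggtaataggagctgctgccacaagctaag
These matches describe letters only, and no binding was measured in this study.

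Depth was 18427891 to 19906706 counts in spleen PM2.5, 16493694 to 20352346 in spleen air, 18848048 to 33844807 in macrophage PM2.5 and 18107264 to 29013034 in macrophage air. Levels are CPM, counts relative to the scaled library total, scaled within each experiment unless a joint scale is named. The 7 red pulp macrophage markers (Vcam1, Slc40a1, Spic, Cd163, Hmox1, Adgre1 and C1qa) summed to between 11890 and 16990 CPM in macrophage PM2.5 and 13760 and 18960 CPM in macrophage air on the joint scale. In whole spleen the same sum was 436.5 to 686 CPM under PM2.5 and 290.5 to 562 CPM under air. The treatment label of macrophage PM2.5 replicate 1 reads air, against its title and description, and the library was grouped by title. Spleen air replicates 3 and 4 held liver transcripts: the 4 liver markers summed to at most 77.4 CPM in spleen air, against at most 8.13 CPM in spleen PM2.5. Equal replicate numbers were not taken as pairs. The labels call the samples biological replicates and do not tie them to single animals, so p-values measure the spread between these samples.

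All 9 are protein-coding genes and lie on 7 chromosomes of the GRCm38 build. Bnip3l lies on chromosome 14 from 66985239 to 67008877, and Xpo7 on the same chromosome from 70654246 to 70766628. Trim58 spans 58640465 to 58652404 and Ube2o 116537740 to 116581447, both on chromosome 11. Trim10 spans 36869574 to 36877833 on chromosome 17, Ermap 119175457 to 119190011 on chromosome 4 and Kel 41686330 to 41704339 on chromosome 6. Tmcc2 spans 132356315 to 132391281 on chromosome 1, and Riok3 spans 12128741 to 12157387 on chromosome 18. Xpo7 shared 39 exon bases (0.205% of its exon bases) with Npm2 on the same strand, and Tmcc2 shared 53 (0.931%) with the antisense gene Gm15849. The strand setting of the counting was not given in the sources used here.

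In whole spleen the members ranged from genes present at similar levels in all libraries to genes that were near 0 in most air libraries and high in 3 PM2.5 libraries. Bnip3l had 116, 226, 119 and 147 CPM in PM2.5 replicates 1 to 4, against 169.6, 115, 140.4 and 102 CPM in air replicates 1 to 4. The groups overlapped, and only PM2.5 replicate 2 lay above the air range. Its log2 fold change was 0.21 (SE 0.227, adjusted p = 0.687, edgeR quasi-likelihood test with Benjamini-Hochberg adjustment, as for all adjusted p below unless another tool is named). Riok3 had 132, 165, 144 and 137 CPM under PM2.5, against 165, 122, 139 and 126 CPM under air. The 8 values of this kinase spanned 1.35-fold from lowest to highest, the least of all members in spleen, and the log2 fold change was 0.07 (SE 0.128, adjusted p = 0.834). The 95% intervals of the log2 fold change ran from -0.29 to 0.71 for Bnip3l and from -0.22 to 0.35 for Riok3.

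Xpo7 and Ube2o were expressed in every spleen and were higher in 3 of the PM2.5 libraries. The exporter Xpo7 had 60.9, 330.4, 80.0 and 118 CPM under PM2.5, against 65.8, 64.5, 57.5 and 55.2 CPM under air. PM2.5 replicate 1 lay inside the air range and the other 3 PM2.5 libraries above it. Ube2o had 35.1, 138, 45.0 and 75.1 CPM under PM2.5, against 15.1, 35.9, 27.5 and 28.2 CPM under air. Here too PM2.5 replicate 1 lay inside the air range, just below the highest air library. The log2 fold change of Xpo7 was 1.28 (SE 0.436, adjusted p = 0.184). That of Ube2o was 1.46 (SE 0.400, adjusted p = 0.135).

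The other 5 members were low in air spleens and spanned a wide range in PM2.5 spleens. Tmcc2 had 10.9, 322, 56.8 and 104 CPM under PM2.5, against 11.6, 8.24, 5.98 and 10.2 CPM under air. It came first of the members in spleen by p, and its log2 fold change was 3.78 (SE 0.791, adjusted p = 0.108). PM2.5 replicate 1 again stayed inside the air range, and replicate 2 was the highest.

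Kel, which encodes the Kell protein, had 1.36, 146, 13.5 and 30.8 CPM under PM2.5, against 4.91, 0.374, 0.264 and 2.06 CPM under air. Its log2 fold change was 4.69 (SE 1.25, adjusted p = 0.133), and air replicate 1 was the highest of its air libraries. Ermap had 3.32, 254, 22.0 and 57.6 CPM under PM2.5, against 10.9, 1.44, 1.32 and 4.87 CPM under air. The lowest PM2.5 value of Ermap lay below the highest 2 air values, and its log2 fold change was 4.20 (SE 1.14, adjusted p = 0.135). Trim10 had 2.01, 153, 13.2 and 30.2 CPM under PM2.5, against 5.44, 1.07, 0 and 0.561 CPM under air. Its log2 fold change was 4.85 (SE 1.31, adjusted p = 0.135).

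Trim58, the enucleation ligase, was the rarest member. It had 0, 216, 25 and 53 counts in the PM2.5 spleens, against 2, 0, 0 and 0 counts in the air spleens, which is 0, 11.8, 1.24 and 2.73 CPM against 0.133, 0, 0 and 0 CPM. It did not pass the filter on low counts in the spleen comparison, because only 3 libraries reached the minimum, and was not tested there. From 294 counts over all PM2.5 spleens and 2 over all air spleens the ratio was 139, with a 95% interval of 38.2 to 1150 that covers counting error only. The count of 0 in PM2.5 replicate 1 shows that these libraries differed far beyond counting error within the PM2.5 group.

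**Figure D1:**
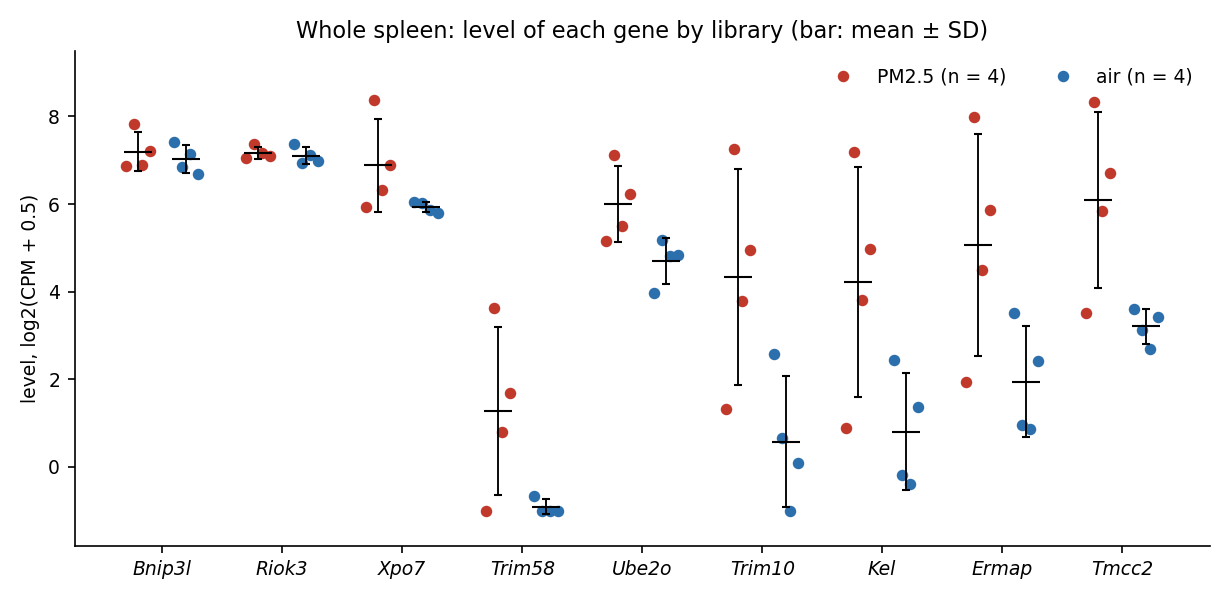
Level of each of the 9 genes in whole spleen as log2(CPM + 0.5), 1 point per library, with PM2.5 (red, n = 4) left of air (blue, n = 4) and bars for the mean ± SD on that scale. Bnip3l and Riok3 vary the least between libraries, with a span of 2.22-fold for Bnip3l and 1.35-fold for Riok3. Trim10, Kel, Ermap and Tmcc2 spread widely under PM2.5, with 1 PM2.5 library at the height of the air libraries.

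None of the 8 members tested in spleen passed an adjusted p of 0.05 with edgeR, where 0.0121% of the 16551 tested genes were called higher under PM2.5 (2 genes). At an unadjusted p under 0.05 stood 2763 genes, and all 8 tested members had a positive fold change, with a median of 2.62 on the log2 scale against 0.0172 over all tested genes. No member had groups that did not overlap, which 4.41% of all tested genes did with every PM2.5 library above every air library. DESeq2 called 4 members higher under PM2.5, where it called 3.27% of all tested genes higher: Tmcc2 (adjusted p = 0.00188), Ube2o (adjusted p = 0.00791), Kel (adjusted p = 0.017) and Ermap (adjusted p = 0.0178). A joint edgeR fit of all 18 libraries called 6 of 9 members higher, Trim10, Trim58, Ube2o, Ermap, Kel and Tmcc2, where it called 3.86% of all tested genes higher. Without a filter on low counts edgeR called those 6 and Xpo7, where it called 1.31% of all tested genes higher. Without PM2.5 replicate 1 it called Trim58, Kel and Tmcc2, where it called 0.804% of all tested genes higher. In that fit Trim58 passed the filter only through the PM2.5 libraries where it was high, and its PM2.5 library at 0 was the one left out. Its call there is therefore no support for a difference. For Kel and Tmcc2 too, the library left out was the PM2.5 library inside the air range, so their calls in that fit are no support either. The calls of the members thus differed between models.

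Spleen PM2.5 replicate 2 was the highest of the 8 spleens for 8 of 9 members, all except Riok3. Replicate 4 came next for 7 members, and replicate 3 took the third place for 8. Without PM2.5 replicate 2 the median log2 fold change of the tested members was 1.80, and without replicates 2 and 4 together it was 1.05, with no member called in either case. With air replicates 3 and 4 left out no member was called. The median was then 3.63 over 9 members, since Trim58 entered that fit, and is not comparable with the median over 8 members. The log2 fold change was 3.94 for Trim10, 4.20 for Kel, 3.78 for Ermap, 3.63 for Tmcc2 and 1.17 for Xpo7. These, Bnip3l and Riok3 were lower than with all libraries, and Ube2o was higher at 1.51. RNA from a whole organ mixes cell types, so more red cell precursors in a spleen and more RNA of these genes per precursor cannot be told apart.

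Marker levels of other cell types also differed between the spleen libraries. The 4 mesothelial markers (Msln, Upk1b, Upk3b and Lrrn4) summed to 17.8, 31.6, 90.9 and 183 CPM in PM2.5 replicates 1 to 4, against 2.72, 3.05, 2.43 and 0.998 CPM in air replicates 1 to 4. Mesothelial cells line the organ surface, these groups did not overlap, and all 4 markers passed with DESeq2 and none with edgeR. The order within the PM2.5 group differed from that of the members, since replicate 4 led in place of replicate 2. The 4 B cell markers summed to between 2963 and 4086 CPM under PM2.5 and 3841 and 4817 CPM under air, and the 5 neutrophil markers to between 15.02 and 193 CPM under PM2.5 and 3.37 and 88.2 CPM under air. All 7 red pulp macrophage markers had positive fold changes, none passed with edgeR and 2 passed with DESeq2, Cd163 (2.31, DESeq2 adjusted p = 4.86e-05) and Slc40a1 (1.25, DESeq2 adjusted p = 0.00254), and their sum lay between 489 and 756 CPM under PM2.5 and 330 and 620.5 CPM under air. The T cell markers summed to between 401 and 510 CPM under PM2.5 and 504 and 672 CPM under air, with Cd3d lower (-0.81, DESeq2 adjusted p = 0.00131). The platelet markers summed to between 81.4 and 248.9 CPM under PM2.5 and 60.3 and 177.5 CPM under air, with Itga2b higher (0.93, DESeq2 adjusted p = 0.0468). The plasma cell markers summed to between 745 and 1236 CPM under PM2.5 and 376 and 884 CPM under air, and none passed. Apart from the mesothelial list, the sums of both groups overlapped in each of these lists. Their part in the members' values was not tested.

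In macrophage preparations the members were present in both groups, and no difference by exposure passed the test. Tmcc2 had 69.7, 143, 127, 105 and 252 CPM in PM2.5 replicates 1 to 5, against 64.2, 152, 23.5, 109 and 269.7 CPM in air replicates 1 to 5. The groups overlapped over nearly their whole range, and the log2 fold change was 0.17 (SE 0.521, adjusted p = 0.919). Ermap had 30.0, 84.1, 91.1, 40.9 and 124 CPM under PM2.5, against 26.4, 59.5, 3.06, 39.7 and 109 CPM under air. Its log2 fold change, 0.65, was the largest of the members here (SE 0.652, adjusted p = 0.735). Kel had 19.4, 54.1, 51.3, 25.1 and 85.7 CPM under PM2.5, against 17.2, 39.6, 1.65, 23.9 and 75.0 CPM under air. Both surface protein genes were lowest in air replicate 3 and highest in PM2.5 replicate 5, and the log2 fold change of Kel was 0.60 (SE 0.679, adjusted p = 0.775).

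Trim10 had 21.6, 51.4, 45.5, 31.3 and 87.0 CPM under PM2.5, against 19.1, 49.4, 3.41, 34.3 and 82.1 CPM under air (log2 fold change 0.34, SE 0.608, adjusted p = 0.858). Trim58 had 1.67, 10.1, 7.97, 5.87 and 14.6 CPM under PM2.5, against 3.32, 9.68, 0.413, 6.92 and 15.02 CPM under air (log2 fold change 0.22, SE 0.678, adjusted p = 0.923). Unlike in spleen, every macrophage library held Trim58. Xpo7 had 95.6, 190.3, 168, 156 and 271 CPM under PM2.5, against 110.3, 179.6, 83.6, 146 and 299 CPM under air. Ube2o had 63.0, 104, 101, 80.5 and 117 CPM under PM2.5, against 65.1, 104, 60.2, 97.4 and 128 CPM under air. For both genes the groups covered nearly the same range, with adjusted p of 0.922 and 0.963.

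Bnip3l and Riok3 were again the steadiest members. Bnip3l had 148, 162, 168, 146 and 162 CPM under PM2.5, against 138, 162, 141, 151 and 179 CPM under air, a span of 1.3-fold over all 10 libraries. Riok3 had 144, 152, 144, 138 and 146 CPM under PM2.5, against 146, 144, 139.5, 136 and 150.2 CPM under air, a span of 1.12-fold. The 95% interval of its log2 fold change ran from -0.11 to 0.15.

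**Figure D2:**
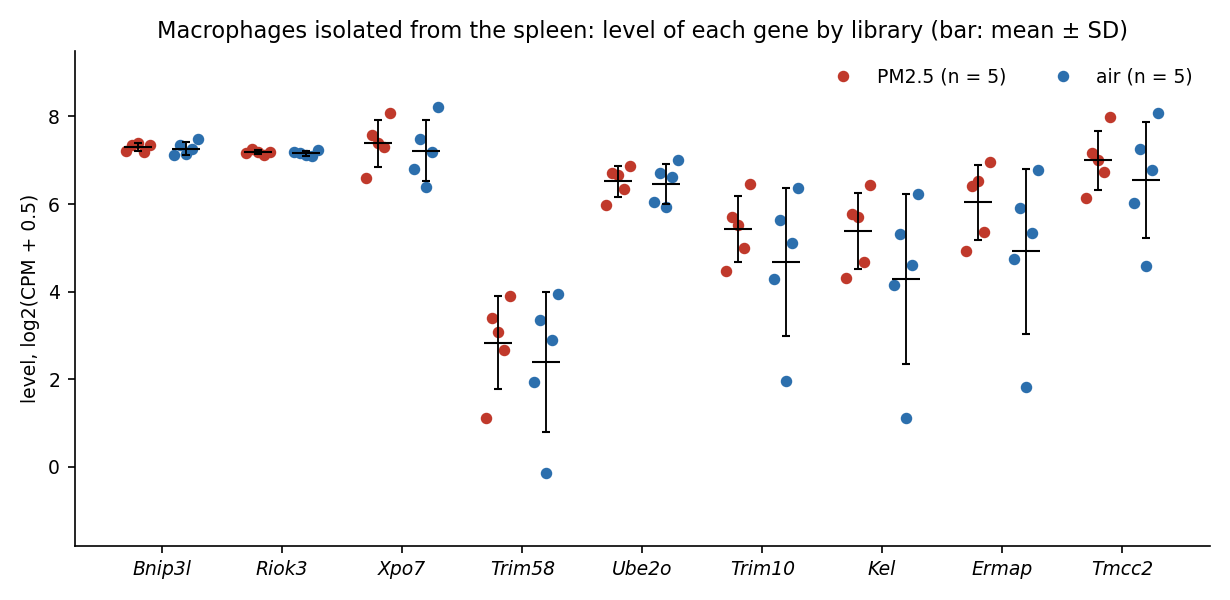
Level of each of the 9 genes in macrophages isolated from the spleen as log2(CPM + 0.5), 1 point per library, with PM2.5 (red, n = 5) left of air (blue, n = 5) and bars for the mean ± SD on that scale. The groups overlap for all 9 genes, and 1 air library lies far below the others for Trim58, Trim10, Kel, Ermap and Tmcc2.

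None of the 9 members passed an adjusted p of 0.05 in macrophages, where edgeR called 0% of the 15696 tested genes in the same direction, with 1704 genes at an unadjusted p under 0.05. DESeq2 called none of the members and 175 genes in all, 136 of them higher. The median log2 fold change of the members was 0.174, against 0.00621 over all tested genes. Air replicate 3 was the lowest of the 10 libraries for 7 members, and without it the log2 fold changes of Bnip3l, Trim58, Xpo7, Ube2o and Tmcc2 turned negative, none of them past the threshold. With PM2.5 replicate 1 counted as air the median was 0.447 and no member was called. Neutrophil markers summed to between 40.2 and 148 CPM under PM2.5 and 17.3 and 61.5 CPM under air, and plasma cell markers to between 1123 and 3983 CPM under PM2.5 and 547 and 1906 CPM under air. All 4 plasma cell markers had positive fold changes, led by Jchain with 1.58 (adjusted p = 0.311 with edgeR and 0.212 with DESeq2), and none passed. All 5 neutrophil markers did too, from 1.49 to 2.21. Of these none passed with edgeR and 1 with DESeq2, Camp (2.21, DESeq2 adjusted p = 0.023). Of the 7 red pulp macrophage markers 6 had negative fold changes, and none passed with either tool. Adgre1 led with -0.49 (adjusted p = 0.299 with edgeR and 0.0643 with DESeq2). B cell markers summed to between 1465 and 2239 CPM under PM2.5 and 1206 and 1988 CPM under air. T cell markers summed to between 106 and 122 CPM under PM2.5 and 96.0 and 146 CPM under air. The part of these cells in the members' values was not tested. RNA of the members made in macrophages and RNA of red cell precursors in the same preparation cannot be told apart.

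The difference of the exposure effect between both experiments, macrophages minus spleen, was tested in the joint fit of 18 libraries. Tmcc2 stood closest to the threshold, with a difference of -3.60 on the log2 scale (SE 0.984, adjusted p = 0.0614). Trim58 followed with -6.56 (SE 1.96, adjusted p = 0.0803), a fitted value that depends on the spleen libraries at 0, and Trim10 with -4.51 (SE 1.43, adjusted p = 0.0935). The difference was -1.42 for Ube2o (adjusted p = 0.105), -4.10 for Kel (adjusted p = 0.124), -3.55 for Ermap (adjusted p = 0.144) and -1.16 for Xpo7 (adjusted p = 0.268). It was -0.18 for Bnip3l and -0.05 for Riok3. None of the 9 members passed 0.05 with edgeR, where 1.46% of the 17779 tested genes were called in either direction. DESeq2 called 3 members with a smaller effect in macrophages than in spleen, where it called 3.66% of all tested genes in that direction: Trim58 (adjusted p = 0.015), Tmcc2 (adjusted p = 0.0159) and Ube2o (adjusted p = 0.0315). The experiments also differed in cell preparation and, as the labels' treatment protocol has it, in filtered air following the exposure in the macrophage experiment, although the titles of both PM2.5 groups are worded alike. These cannot be told apart from the tissue.

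**Figure D3:**
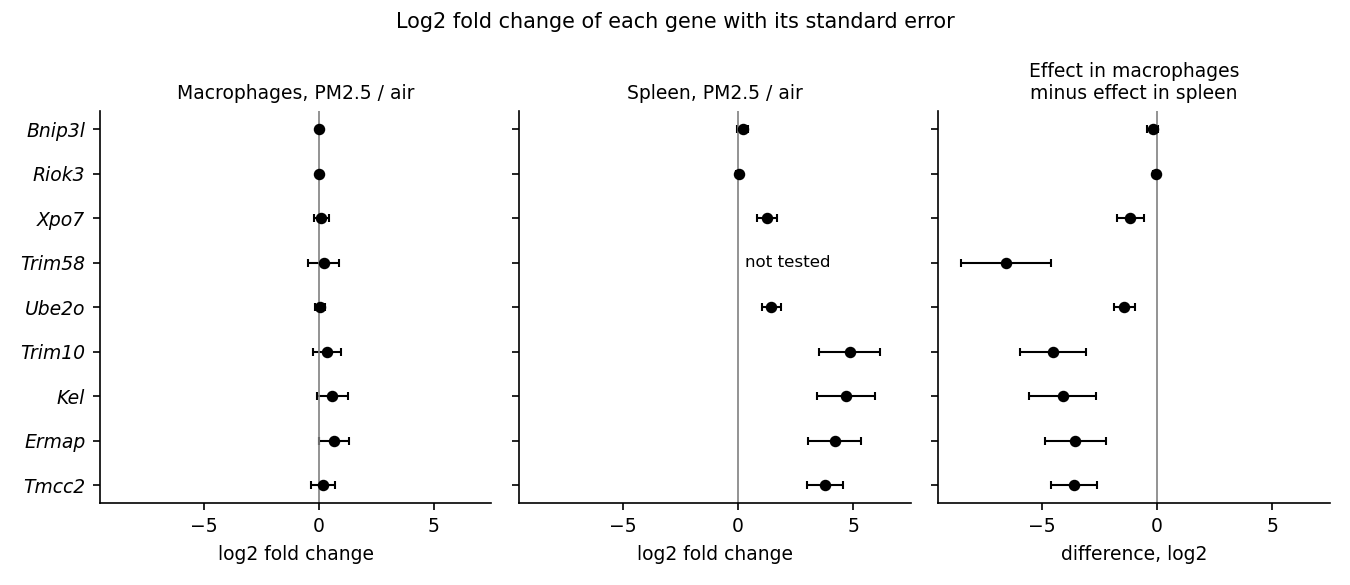
Log2 fold change of each gene, PM2.5 over air, in macrophages (left) and spleen (middle), and the difference of both effects (right), with the standard error of the edgeR fit as bars. Tmcc2, Ermap, Kel and Trim10 lie between 0.17 and 0.65 in macrophages and between 3.78 and 4.85 in spleen, and Bnip3l and Riok3 lie close to 0 in all 3 panels.

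Levels of different members were compared per kilobase of the longest principal transcript, on the joint scale. That transcript has 4472 bases for Xpo7, 3790 for Riok3 and 2769 for Tmcc2, whereas all annotated exons of these genes have 19005, 10963 and 5692. For Ube2o both lengths are close, 5205 and 5288 bases. The order given here holds for this choice of length only. In air spleens Bnip3l and Riok3 led, with means of 36.5 ± 8.60 and 32.6 ± 4.87 CPM per kb (SD, n = 4), and their ranges overlapped. Xpo7 followed at 12.2 ± 1.17 CPM per kb, below both and above Ube2o at 4.58 ± 1.47, with no overlap on either side at these lengths. Tmcc2, Ermap, Kel and Trim10 came next, with medians of 2.95, 0.613, 0.425 and 0.324 CPM per kb, each overlapping its neighbour, and Trim58 had a median of 0. In PM2.5 spleens the order by median began with Bnip3l at 37.2, Riok3 at 33.6 and Tmcc2 at 26.3 CPM per kb. Every pair of neighbours in that order overlapped. In macrophages Bnip3l led with medians of 54.8 under PM2.5 and 51.0 under air, ahead of Tmcc2 with 50.2 and 43.0 and Riok3 with 41.7 and 41.4 CPM per kb. Tmcc2 ranged from 27.3 to 99.3 under PM2.5 and from 9.29 to 106.5 under air, over the whole range of Bnip3l and Riok3, so this order does not hold beyond the spread. Xpo7 came next with medians of 41.1 under PM2.5 and 35.7 under air, and it too overlapped Riok3. Trim58 was the lowest in all 4 groups, with medians of 3.97 CPM per kb in macrophage PM2.5 and 3.45 in macrophage air.

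The 8 other erythroid genes below served as a yardstick for how much red cell precursor RNA a library held: Slc4a1, Sptb, Epb42, Ank1, Rhag, Rhd, Alas2 and Hemgn, which encode membrane skeleton, transport, heme synthesis and nuclear proteins of red cells. Their mean level, as log2(CPM + 0.5), was 1.93, 7.85, 4.43 and 5.77 in spleen PM2.5 replicates 1 to 4, against 2.56, 0.92, 0.87 and 1.28 in spleen air replicates 1 to 4. PM2.5 replicate 1 lay below air replicate 1, as it did for Tmcc2, Kel, Ermap and Trim10. In macrophages the mean was 5.45, 6.74, 6.77, 5.86 and 7.36 under PM2.5, against 5.15, 6.46, 2.51, 5.96 and 7.21 under air, so air replicate 3 stood far below the others. All 8 genes had positive fold changes in spleen with a median of 5.28, none was called by edgeR and 8 by DESeq2.

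Across libraries the members followed this yardstick to very different degrees. Their slope is the log2 change of a member per log2 unit of the yardstick, over 8 spleens or 10 macrophage libraries, and 18 such relations were computed. In spleen the slope was 1.05 for Trim10, 1.02 for Kel, 0.96 for Ermap, 0.79 for Tmcc2 and 0.66 for Trim58, with Pearson's r between 0.979 and 0.991. Trim58 had no count in PM2.5 replicate 1 and air replicates 2 to 4, so its slope in spleen depends on the pseudocount. In spleen the largest p of these 5 members was 0.000595 for r (adjusted p = 0.000824) and 0.00119 for Spearman's rho (adjusted p = 0.00165), which was 0.939 to 1, by exact permutation. In macrophages the slope was 1.08 for Kel, 1.06 for Ermap, 0.91 for Trim10, 0.875 for Trim58 and 0.70 for Tmcc2, with r between 0.95 and 0.998 and rho between 0.939 and 0.988. The largest p of these 5 was 3e-05 for r (adjusted p = 7.71e-05) and 0.00023 for rho (adjusted p = 0.000591), by permutation with 100000 resamples. Without the 2 libraries farthest from the median of the yardstick, r stayed between 0.928 and 0.955 in spleen and 0.890 and 0.989 in macrophages. In spleen PM2.5 replicates 2 and 4 were left out, and PM2.5 replicate 3 then stood apart, at 4.43 with the next library at 2.56. The r that remained in spleen leaned on that library, most of all for Trim58, with 25 counts there and 0 or 2 in the others left. Within exposure groups r was 0.955 to 0.979 in spleen and 0.966 to 0.998 in macrophages. These members and the yardstick share the libraries and their scaling.

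Xpo7 and Ube2o had slopes of 0.313 and 0.314 in spleen and 0.366 and 0.235 in macrophages. These slopes depended on the libraries at the ends of the yardstick. Without the farthest 2 they were 0.121 and 0.0842 in spleen, where PM2.5 replicates 2 and 4 were left out, and 0.643 and 0.472 in macrophages, where PM2.5 replicate 5 and air replicate 3 were. For Xpo7 r was 0.926 and rho 0.881 in spleen (exact permutation p = 0.000546 and 0.00724, adjusted p = 0.000819 and 0.00931), and 0.877 for r without the farthest 2 libraries. That last r also leaned on PM2.5 replicate 3. For Ube2o in spleen r was 0.837 and rho 0.690 (exact permutation p = 0.0088 and 0.0694, adjusted p = 0.0106 and 0.0833). That relation rested on PM2.5 replicates 2 and 4, without which r was 0.216. In macrophages r was 0.867 for Xpo7 (permutation p = 4e-05, adjusted p = 9e-05; rho 0.927, p = 0.00034, adjusted p = 0.00065) and 0.853 for Ube2o (permutation p = 2e-05, adjusted p = 7.2e-05; rho 0.939, p = 0.00023, adjusted p = 0.000591). Without the farthest 2 libraries it was 0.917 and 0.945, so these relations did not rest on them. Bnip3l had a slope of 0.10 in spleen and 0.07 in macrophages, and in spleen its r of 0.715 (exact permutation p = 0.0391, adjusted p = 0.044; rho 0.643, p = 0.0962, adjusted p = 0.108) came to 0.129 without the same libraries. In macrophages the r of Bnip3l was 0.781 (permutation p = 0.00399, adjusted p = 0.00513; rho 0.927, p = 0.00044, adjusted p = 0.00066), and without the farthest 2 libraries r was 0.97 and the slope 0.166. Riok3 had slopes of 0.04 and 0.02, with r of 0.612 in spleen (exact permutation p = 0.108, adjusted p = 0.114; rho 0.548, p = 0.171, adjusted p = 0.181) and 0.477 in macrophages (permutation p = 0.171, adjusted p = 0.171; rho 0.455, p = 0.191, adjusted p = 0.191).

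**Figure D4:**
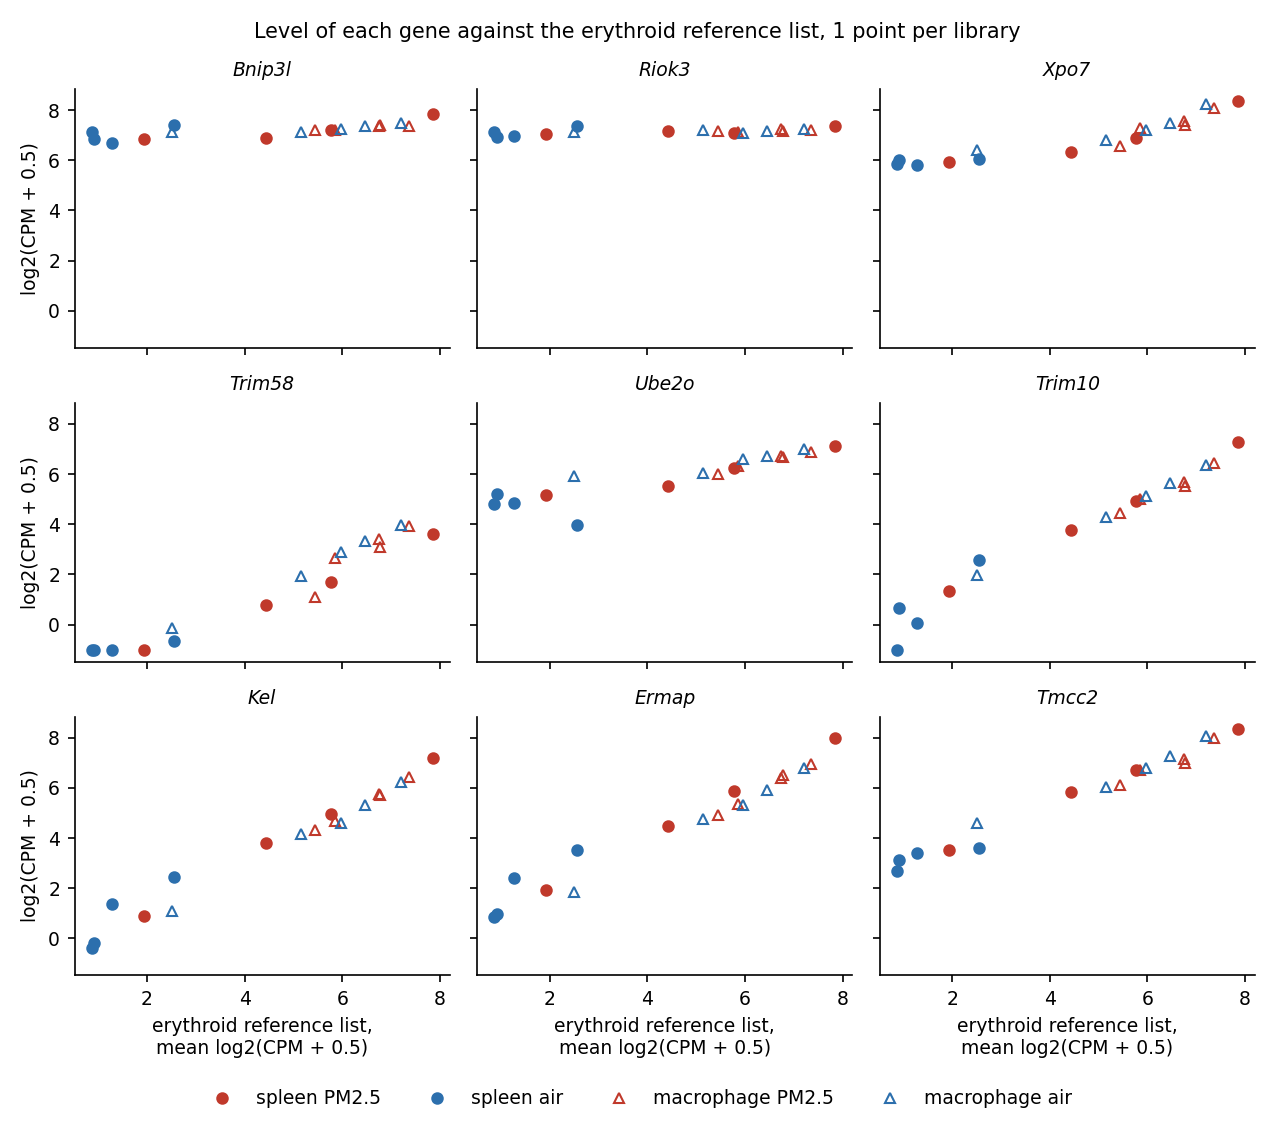
Level of each gene, log2(CPM + 0.5), against the mean level of the 8 erythroid reference genes on the same scale, 1 point per library, for spleen (filled circles) and macrophages (open triangles) under PM2.5 (red) and air (blue). Trim10, Kel and Ermap run along a line with a slope near 1 in both tissues. Bnip3l and Riok3 change far less, with slopes of 0.10 and 0.04 in spleen and 0.07 and 0.02 in macrophages.

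The level of each member relative to the yardstick was then compared between exposures by an exact permutation test, adjusted over the 9 members. In macrophages Trim10 had -0.98, -1.05, -1.25, -0.87 and -0.90 on the log2 scale under PM2.5, against -0.86, -0.81, -0.54, -0.84 and -0.84 under air. Every PM2.5 library lay below every air library, by little: the highest PM2.5 value was -0.868 and the lowest air value -0.856. The difference was -0.23, with an exact permutation p of 0.00794, the smallest that 5 against 5 libraries can give, and an adjusted p of 0.0714 that missed the threshold. Trim58 had -4.32, -3.34, -3.69, -3.19 and -3.44 under PM2.5, against -3.21, -3.11, -2.64, -3.07 and -3.25 under air, with 1 PM2.5 library inside the air range (difference -0.54, exact permutation p = 0.0238, adjusted p = 0.0714). Tmcc2 had 0.69, 0.42, 0.23, 0.86 and 0.62 under PM2.5, against 0.87, 0.80, 2.08, 0.81 and 0.87 under air (difference -0.52, exact permutation p = 0.0238, adjusted p = 0.0714). Without air replicate 3 the difference of Tmcc2 was -0.273 (adjusted p = 0.19), and without PM2.5 replicate 1 that of Trim58 was -0.358 (adjusted p = 0.179). These 3 members lay lower under PM2.5 relative to this yardstick, whereas with globin and heme genes as the yardstick their differences were 0.42, 0.11 and 0.13, in the other direction.

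Kel and Ermap lay within 0.14 of the air groups relative to the yardstick in macrophages. The difference was 0.11 for Kel (exact permutation p = 0.302, adjusted p = 0.333) and 0.14 for Ermap (exact permutation p = 0.0952, adjusted p = 0.214). In spleen, where 4 against 4 libraries cannot give a p below 0.0286, no member passed either. After adjustment a member could pass there only if most of the members stood at that smallest p. Trim10 differed by 0.16 (exact permutation p = 0.743, adjusted p = 0.743), Kel by -0.17 (exact permutation p = 0.571, adjusted p = 0.643) and Ermap by -0.46 (exact permutation p = 0.4, adjusted p = 0.514). Tmcc2 differed by -0.70 (exact permutation p = 0.114, adjusted p = 0.171) and Trim58 by -1.39 (exact permutation p = 0.0571, adjusted p = 0.103), a value that depends on the pseudocount in the libraries with no count of Trim58. For Bnip3l, Riok3, Xpo7 and Ube2o the difference lay between -3.52 and -2.28 in spleen, where their own levels moved less than the yardstick.

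**Figure D5:**
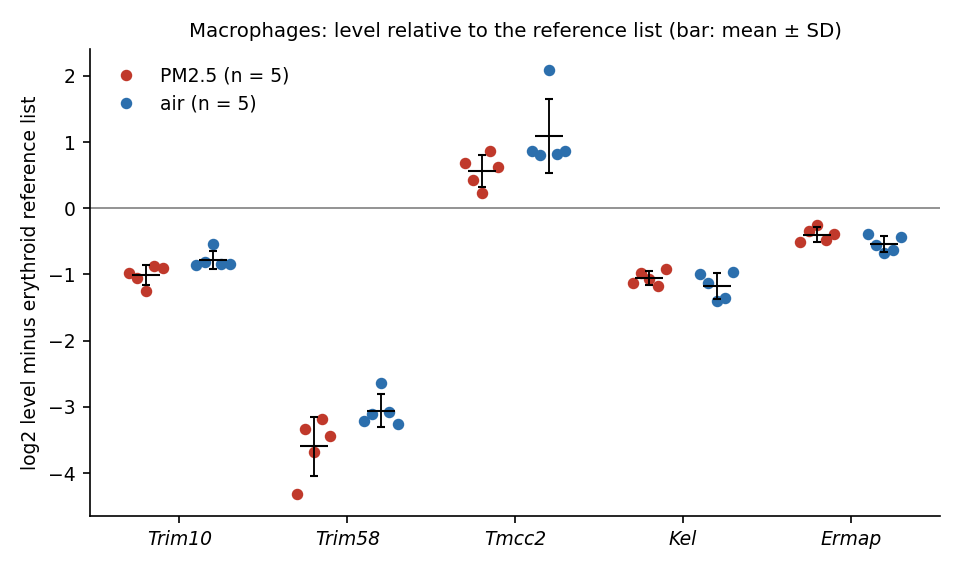
Level of 5 genes in macrophages minus the mean of the erythroid reference genes, in log2 units, 1 point per library, with PM2.5 (red, n = 5) left of air (blue, n = 5) and bars for the mean ± SD. The 5 PM2.5 libraries of Trim10 lie just below its 5 air libraries, and 1 air library stands above the rest for Trim10, Trim58 and Tmcc2.

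Other genes of the same processes were read from lists chosen with the members. Of 30 genes of mitophagy and autophagy, the machinery that Bnip3l recruits, 29 were tested in spleen, and 18 had positive and 11 negative fold changes, with a median of 0.07. None passed with edgeR and 1 with DESeq2, the autophagy kinase gene Ulk1, with 0.67 (SE 0.158, adjusted p = 0.124 with edgeR and 0.00897 with DESeq2). Gabarap, which encodes an autophagosome membrane protein, had -0.43 (SE 0.142, adjusted p = 0.177), and Alox15, which encodes a lipoxygenase of reticulocyte mitochondria breakdown, 2.83 (SE 1.10, adjusted p = 0.237). Alox15 was near the floor in spleen, with means of 1.11 CPM under PM2.5 and 0.156 CPM under air. Its means in macrophages were 9.78 CPM under PM2.5 and 9.46 CPM under air. In macrophages none of 29 passed. The smallest p belonged to Wipi1 (0.56, adjusted p = 0.381), Ulk2 (-0.22, adjusted p = 0.463) and Atg7 (-0.19, adjusted p = 0.473).

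All 21 genes of nuclear condensation and enucleation, the processes of Xpo7, Riok3 and Trim58, were tested. In spleen 16 had positive fold changes, with a median of 0.27, none passed with edgeR and 1 with DESeq2. This was Myh10, which encodes a non-muscle myosin heavy chain, with 3.42 (SE 0.709, adjusted p = 0.108 with edgeR and 0.00333 with DESeq2). Tfdp2, an E2F partner, had 1.58 (adjusted p = 0.154) and the transcriptional regulator Cited2 0.49 (adjusted p = 0.247). The difference of the effect passed with edgeR for Myh10, at -3.18 (SE 0.743, adjusted p = 0.0449). In macrophages Lmnb1, which encodes the nuclear lamina protein lamin B1, had 0.40 (SE 0.0902, adjusted p = 0.258 with edgeR and 0.021 with DESeq2), ahead of E2f4 with 0.16 (adjusted p = 0.553) and Diaph3 with 0.53 (adjusted p = 0.554).

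Of the 18 genes of the ubiquitin system of late erythroid cells, beside Ube2o, Trim10 and Trim58, 15 had positive fold changes in spleen with a median of 0.33, and none passed with either tool. Ube2l6, a ubiquitin-conjugating enzyme, had 1.33 (SE 0.464, adjusted p = 0.192), the heat shock gene Hspa1b 1.59 (adjusted p = 0.269) and the cullin Cul4a 0.47 (adjusted p = 0.298). In macrophages none passed, and Gid8 (0.21, adjusted p = 0.312), Fbxo7 (0.19, adjusted p = 0.415) and Fbxo9 (0.19, adjusted p = 0.514) came first. Of 21 carriers of blood group antigens, beside Kel and Ermap, 20 were tested in spleen. Of these 17 had positive fold changes, with a median of 0.65, none passed with edgeR and 6 with DESeq2. Bcam, the Lutheran antigen carrier, came first with 2.37 (SE 0.454, adjusted p = 0.0941 with edgeR and 1.22e-05 with DESeq2), followed by Rhag with 5.57 (adjusted p = 0.118 and 0.00204) and Smim1 with 2.34 (adjusted p = 0.119 and 0.000739). The difference of the effect passed with edgeR for Bcam, at -2.76 (SE 0.530, adjusted p = 0.0183). Bcam and Myh10 are also made outside the erythroid lineage, and the mesothelial marker sums given above did not overlap between the spleen groups. The part of mesothelial or of erythroid cells in the values of Bcam and Myh10 was not tested. In macrophages Xk (0.82, adjusted p = 0.343), Smim1 (1.13, adjusted p = 0.382) and Cd44 (-0.24, adjusted p = 0.473) had the smallest p, and none passed.

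Of 12 early erythroid regulators all had positive fold changes in spleen, with a median of 2.24, and 6 passed with DESeq2 and none with edgeR. The erythropoietin receptor gene Epor had 3.86 (SE 0.847, adjusted p = 0.118 with edgeR and 0.00327 with DESeq2), Nfe2 3.39 (adjusted p = 0.124 and 0.0119) and Kit 0.79 (adjusted p = 0.127 and 0.0124). The difference of the effect passed with edgeR for Epor, at -3.74 (SE 0.826, adjusted p = 0.039). In macrophages Myb had 0.76 (adjusted p = 0.287 with edgeR and 0.0464 with DESeq2), Kit -0.46 (adjusted p = 0.472) and Gfi1b 1.04 (adjusted p = 0.49). Early genes, at the stage before the members act, were high in the same PM2.5 spleens: the mean of Gata1, Klf1, Tal1, Nfe2, Gfi1b and Epor was 1.42, 6.16, 3.33 and 4.57 in PM2.5 replicates 1 to 4, against 2.38, 0.68, 0.81 and 1.25 in air replicates 1 to 4, in log2(CPM + 0.5). Relatives of the members by sequence family were a contrast. Of 19, 17 were tested in spleen, 9 with positive and 8 with negative fold changes and a median of 0.04, and none passed with either tool. Ece1 (0.39, adjusted p = 0.283), Ube2z (-0.25, adjusted p = 0.295) and Riok2 (-0.29, adjusted p = 0.359) had the smallest p in spleen. In macrophages these were Trim41 (-0.17, adjusted p = 0.44), Ece1 (-0.27, adjusted p = 0.55) and Ranbp17 (0.90, adjusted p = 0.556).

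The genes whose pattern was most like the members' mean scaled profile were ranked by Pearson's r among genes with a mean of at least 1 CPM. Over the 8 spleens these were Hemgn (0.995), Ammecr1 (0.994), Redrum (0.993), Tmem56 (0.992) and Epb42 (0.992), out of 14984 genes ranked. Over the 10 macrophage libraries they were AC154279.1 (0.989), Mylk3 (0.987), Fech (0.985), Art4 (0.983) and Fhdc1 (0.982), out of 13567. Hemgn and Epb42 belong to the yardstick list. No gene was among the 5 in both experiments.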

How the data were processed

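Polyadenylated RNA was sequenced, and the authors deposited 1 table of unnormalized read counts per Ensembl gene. Per the submitters' processing notes FastQC 0.10.1 and HTSeq 0.10.0 were used, and the builds named are mm10 and GRCm38. Strand setting, annotation release and aligner were not given in the sources used here. Without a strand setting, reads of overlapping genes on opposite strands cannot be told apart. Symbols were matched by identifier in GENCODE M21 (52081 of 55414), and every column matched 1 sample, in spleen by its description and in macrophages by the description and title, where the column name has 1 letter more. The deposited labels of the PM2.5 groups read CAP, taken as PM2.5 from the treatment protocol. No 2 libraries of a group were copies.

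The tests were run in edgeR 4.0.16 (R 4.3.3): filterByExpr (minimum count 10, minimum total 15), TMM scaling, quasi-likelihood tests, two-sided, Benjamini-Hochberg adjustment over all tested genes and a threshold of 0.05. Spleen and macrophages had a fit each, and the difference of the effects in a joint fit of 18 libraries. A count minimum and the depth limit what can be called for rare genes such as Trim58. Alternatives were DESeq2 1.42.0, limma 3.58.1 (voom), other scalings and filters, a replicate block, the joint fit, a threshold of 0.1 and the omission of libraries. The yardstick comparison used log2(CPM + 0.5) and exact two-sided permutation tests computed with numpy 2.4.6. On a simulated case their p was the same as that of scipy 1.17.1. Alternatives were a pseudocount of 0.1, globin and heme genes, and (chosen after seeing the data) 6 early erythroid genes. Ahsp was not used here, and 2 genes of the original lists are not reported here and were left out of the lists and the yardstick. Intervals are at 95%.

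The 9 members and the lists were chosen with earlier results of these data known. Named were all members, up to 3 genes per list and experiment with the smallest p, and the 5 most alike genes per experiment. Myh10, Bcam and Epor in the difference of effects and the single cell type markers were chosen by their values. The fits were tested on simulated counts, and recovered part of the planted changes.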

Additional observations from a re-analysis of the deposited data

Results flagged for a closer look

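In 72 groups of values (the CPM and the level relative to the erythroid genes, 9 members in 4 groups), 4 single libraries stood apart from their group by a gap test on the range, which chance flags in about 1 of 20 groups. Trim58 was at 0.133 CPM in spleen air replicate 1, from 2 counts, and at 0 in the other 3 spleen air libraries. Macrophage air replicate 3 stood above the other 4 macrophage air libraries in the level relative to the erythroid genes for 3 members: Tmcc2 at 2.081 with the next library at 0.870, Xpo7 at 3.89 with the next at 1.65, and Trim10 at -0.5381 with the next at -0.81, all in log2 units. That library had the lowest mean of the erythroid genes among the macrophage libraries, 2.51 in log2(CPM + 0.5).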

How the results depend on the processing

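The count of members called in spleen was 0 in the edgeR fit of spleen alone and 0 with limma-voom, both other scalings, the stricter filter and the threshold of 0.1. It was 4 with DESeq2, 7 with no filter on low counts and 6 in the joint fit, and 0 to 3 when 1 library was left out. In macrophages it was 0 under every setting tried. In the difference of the effects it was 0 in the edgeR fit, 3 at a threshold of 0.1, 3 with DESeq2, 1 with no filter and 0 to 2 with 1 library left out. Relative to the erythroid genes it was 0 in both experiments, and 0 to 2 in macrophages with 1 library left out (Trim10 and Trim58 without PM2.5 replicate 4). With all libraries no member could pass that test alone after adjustment. Over all genes, the 2 genes called in spleen became 830 with DESeq2, 1050 in the joint fit, 461 with no filter, 136 when PM2.5 replicate 1 was left out, 219 when air replicate 2 was, 1 when air replicate 4 was and 0 when air replicate 3 or PM2.5 replicate 2, 3 or 4 was. In macrophages 0 became 175 with DESeq2, 1 with no filter, 17 when air replicate 4 was left out and 3 when PM2.5 replicate 2 was. In the difference 259 became 1044 with DESeq2, 3 with limma-voom and 1317 without spleen air replicate 2. It was 285, 286, 368 and 295 without spleen air replicate 1, spleen PM2.5 replicate 1, spleen PM2.5 replicate 2 and macrophage PM2.5 replicate 2, and 68 (without spleen air replicate 3) to 164 without any other single library. The causes were not tested.

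Directions changed only for small differences or with another yardstick. Bnip3l in spleen was -0.14 without PM2.5 replicates 2 and 4. With 1 library left out, log2 fold changes ranged from -0.0193 to 0.348 for Bnip3l in spleen, and in macrophages from -0.00989 to 0.0809 for Bnip3l, -0.106 to 0.69 for Trim58, -0.0999 to 0.433 for Xpo7, -0.0894 to 0.184 for Ube2o and -0.15 to 0.67 for Tmcc2. The difference of the effects ranged from -0.321 to 0.0682 for Bnip3l and -0.15 to 0.00918 for Riok3. Relative to globin and heme genes, Trim58 differed by 0.0249, Ermap by 0.961, Kel by 1.25 and Tmcc2 by 0.721 in spleen, and Trim10 by 0.424, Trim58 by 0.114 and Tmcc2 by 0.133 in macrophages. Relative to early erythroid genes, Ermap differed by 0.539, Kel by 0.824 and Tmcc2 by 0.299 in spleen. With 1 library left out, the spleen differences ranged from -0.182 to 0.445 for Trim10 and -0.391 to 0.0529 for Kel.

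The replicate numbers did not meet the criterion for pairing, a correlation above 0.1 for every number. Same-numbered libraries correlated between -0.146 and 0.0701 in spleen and between -0.15 and 0.331 in macrophages, and number 3 of the 4 in spleen and numbers 4 and 5 of the 5 in macrophages correlated best with themselves. With the replicate number as a block, 0 members were called in spleen, 0 in macrophages and 0 in the difference. Of all genes 3 were called in spleen and 91 in the difference. Relative to the erythroid genes the block was a sign-flip test over libraries of equal number. With so few pairs it cannot give a p under 0.05, so its 0 in either experiment was fixed in advance. Counts of 0 to 2 in the air spleens limit the precision of Trim58 there.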
